A study of Mus musculus with 2 samples.

Results

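Mir203, Mir205 and Mir31 are 3 miRNA genes that the literature ties to stratified squamous epithelium, the lining of the forestomach in mice. They were found by their symbols in the GENCODE mouse annotation, and make up 3 of the 1973 miRNA genes in the count tables. Levels were taken from microRNA sequencing, which reads the short RNA of a tissue, here below 30 nucleotides, in whole stomachs of newborn mice (strain B6NCrl, postnatal day 0). The 2 libraries come from littermates, 1 dam's pups of unrecorded sex. Both belong to 1 group with no treatment and no altered allele, so no contrast between conditions exists. The stomach was taken whole, so the libraries do not separate the squamous forestomach from the glandular part, and in bulk tissue fewer cells of a type and less RNA per cell cannot be told apart.

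A miRNA gene is transcribed into a longer RNA that folds into a hairpin, from which the enzymes Drosha and Dicer cut a short duplex. An arm of that duplex is loaded into an Argonaute protein and guides it to messenger RNAs, mainly by pairing of its seed, the bases 2 to 8 from the 5′ end. In skin, miR-203 is known for limiting the growth of keratinocytes as they leave the basal layer, and for repressing the stem cell factor p63. miR-205 is known from the basal layer of stratified and glandular epithelia and, with the miR-200 family, represses Zeb1 and Zeb2. miR-31 is known from keratinocytes, hair follicles and squamous tumours.

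The mature sequences, from RefSeq on GRCm38.p6, are shown with the seed in capitals, because the seed decides which messenger RNAs each arm can recognise and lets the 3 genes be compared. All 3 genes matched a RefSeq entry with both arms annotated:
miR-203-3p: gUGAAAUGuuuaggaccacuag
miR-203-5p: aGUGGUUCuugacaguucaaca
miR-205-5p: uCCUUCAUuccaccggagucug
miR-205-3p: gAUUUCAGuggagugaagcuca
miR-31-5p: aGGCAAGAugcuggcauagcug
miR-31-3p: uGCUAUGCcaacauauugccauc
These 6 arms carry 6 different seeds. The letters that pair with the seed in a messenger RNA are CAUUUCA for miR-203-3p, AUGAAGG for miR-205-5p and UCUUGCC for miR-31-5p. None of the 6 seeds occurs in any other of the 1679 mature mouse miRNAs in the RefSeq table, so no other gene in that table adds to the same seed. Of 282 detected genes with mature sequences in the table, 124 (44%) have seeds that no other mature miRNA holds. The deposited counts are given per gene, not per arm, so they do not tell which arm the reads came from.

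The hairpins are shown with the mature arms in capitals, because reads are assigned to these stretches of the genome:
Mir203: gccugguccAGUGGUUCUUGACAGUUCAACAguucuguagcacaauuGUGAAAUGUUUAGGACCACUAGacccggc
Mir205: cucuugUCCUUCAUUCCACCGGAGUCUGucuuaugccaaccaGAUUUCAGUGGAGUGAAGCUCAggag
Mir31: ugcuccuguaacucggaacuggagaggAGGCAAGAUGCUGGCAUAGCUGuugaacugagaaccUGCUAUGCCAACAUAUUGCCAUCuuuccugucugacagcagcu
The annotated hairpins are 76 nt long for Mir203, 68 nt for Mir205 and 106 nt for Mir31, beside a median of 85.0 nt over detected genes. None of the 3 has a stretch of 20 nt in common with another hairpin, which holds for 235 of 305 detected genes (77.0%). Their longest common stretches are 11, 14 and 12 nt.

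**Figure D1:**
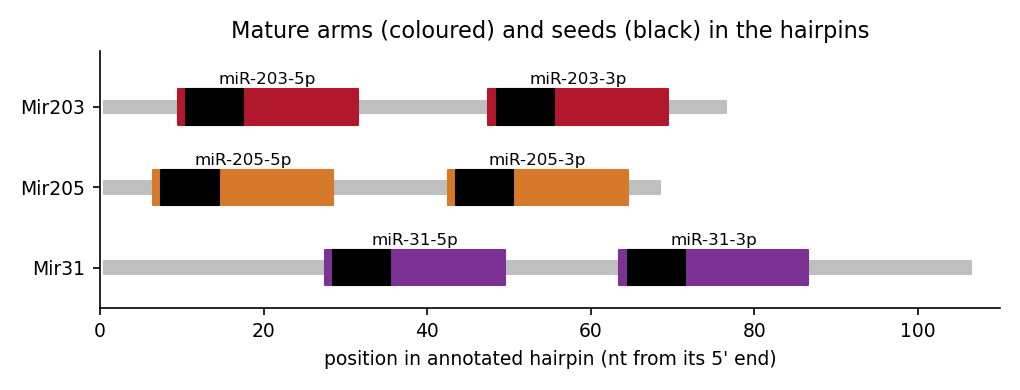
Position of the mature arms (coloured bars) and their seeds (black) in the annotated hairpins (grey) of Mir203, Mir205 and Mir31, in nucleotides from the 5′ end of each hairpin. The Mir31 annotation, at 106 nt, extends further on both sides of its arms than those of Mir203 (76 nt) and Mir205 (68 nt).

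The 3 genes lie on different chromosomes and none has a miRNA gene within 20 kb in GENCODE M21 (GRCm38, the assembly that mm10 names). Mir203 (ENSMUSG00000065574.1) lies on the plus strand at chr12:112130880-112130955, between protein-coding genes, 3.32 kb from Aspg and 15.3 kb from Kif26a. Mir205 (ENSMUSG00000065533.1) lies on the minus strand at chr1:193507463-193507530 and overlaps an exon of the long non-coding RNA 4631405K08Rik, which RefSeq names Mir205hg. Mir31 (ENSMUSG00000065408.1) lies on the minus strand at chr4:88910557-88910662 and overlaps an exon of the long non-coding RNA AL805899.1, with Ifne 30.4 kb away as the nearest protein-coding gene. The nearest miRNA genes are Mir3073a (21.6 kb from Mir203), Mir3962 (1314 kb from Mir205) and Mir491 (788 kb from Mir31). Each of these 3 neighbours had at most 7 counts in either pup.

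Own-strand counts of all miRNA genes summed to 4463355 in pup 1 and 3454655 in pup 2. Levels are given as own-strand counts per 1000000 of these (CPM), with means and SDs over the 2 pups (n = 2). Detection required at least 10 counts in each pup, and 305 of 1973 genes (15.5%) met it, all 3 squamous genes among them. A further 26.0% and 25.7% of all reads mapped to several places and were assigned to no gene. Genes that share sequence with another hairpin can lose reads this way. The 3 squamous genes share no 20-nt stretch, so their ranks and shares of counts can be overstated.

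Mir203, the differentiation-linked gene, stood at 94572 CPM in pup 1 and 96198 CPM in pup 2, from 422110 and 332331 counts. Its mean was 95385 ± 1150 CPM, a coefficient of variation of 1.21% beside a median of 9.40% over detected genes. That closeness depends on the scale, as after TMM scaling, which centres most genes on no difference, the coefficient was 3.84% beside a median of 8.43%. Both medians include genes with far fewer counts, whose counting error is larger. Its share of own-strand counts was 9.46% in pup 1, with an exact 95% interval of 9.43% to 9.48%. The share in pup 2 was 9.62%, with 9.59% to 9.65%, and these intervals cover counting error only. The pups lay close together, and by assigned counts Mir203 ranked 2 among detected genes in each.

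Mir205, the basal-layer gene, stood at 15272 CPM in pup 1 and 18316 CPM in pup 2, from 68166 and 63277 counts. Its mean was 16794 ± 2152 CPM, with a coefficient of variation of 12.8% (7.79% after TMM scaling). Its share of counts was 1.53% (interval 1.52% to 1.54%) in the first pup and 1.83% (1.82% to 1.85%) in the second. Pup 2 was the higher library, and the gene ranked 14 in pup 1 and 13 in pup 2.

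Mir31 stood at 1737 CPM in pup 1 and 1998 CPM in pup 2, from 7754 and 6902 counts. Its mean was 1868 ± 184 CPM, with a coefficient of variation of 9.87% (4.83% after TMM scaling). Its share of counts was 0.174% (interval 0.170% to 0.178%) in the first pup and 0.200% (0.195% to 0.205%) in the second. Pup 2 was again the higher library, and the gene ranked 60 in pup 1 and 57 in pup 2.

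**Figure D2:**
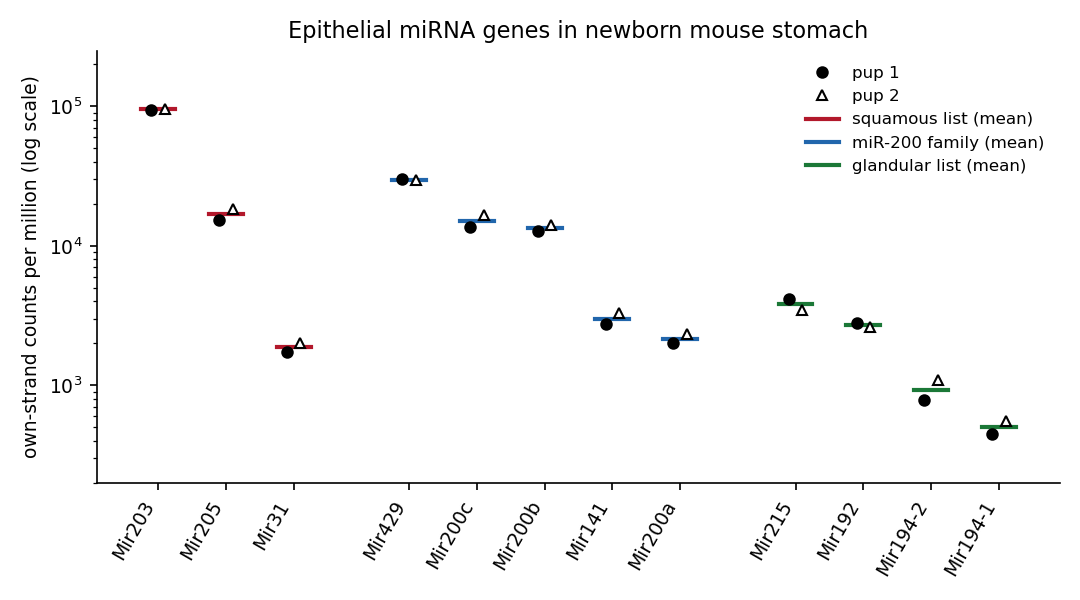
Own-strand CPM (log axis) of the 3 squamous genes, the 5 genes of the miR-200 family and the 4 genes of the glandular list, with pup 1 as filled circles, pup 2 as open triangles and the mean of both as a bar. Mir203 lies above every other gene shown, at 94572 and 96198 CPM, and Mir31 lies below all 5 genes of the miR-200 family in mean level.

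In the order of levels, Mir203 had no close neighbour. Mir143, a smooth muscle gene and the only one above it, was 2.53-fold higher in counts (241858 ± 12311 CPM). Mir99a, next below, stood at 63047 ± 1872 CPM, so that Mir203 exceeded it 1.51-fold, and Mirlet7g followed at 42007 ± 2018 CPM. Each of these gaps exceeded the SDs of both genes. Mir205 lay in a dense part of the order. It was below Mir335 (19056 ± 1183 CPM) in both pups, but its gaps to Mir10a (18114 ± 1479 CPM), Mir130a (15617 ± 1180 CPM) and Mir200c (15111 ± 2193 CPM) did not exceed its own SD, although it was above Mir130a and Mir200c in both pups. Mir31 likewise differed by less than its own SD from Mir183 (1966 ± 63.2 CPM), Mir130b (1931 ± 126 CPM), Mir342 (1813 ± 347 CPM) and Mir149 (1811 ± 4.37 CPM). Within a library, Mir205 over Mir200c had a log2 ratio of 0.15 ± 0.02, so that order held beyond the spread of the ratio, whereas Mir205 and Mir10a changed order between the pups, as Mir31 did with Mir183, Mir342 and Mir149.

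**Figure D3:**
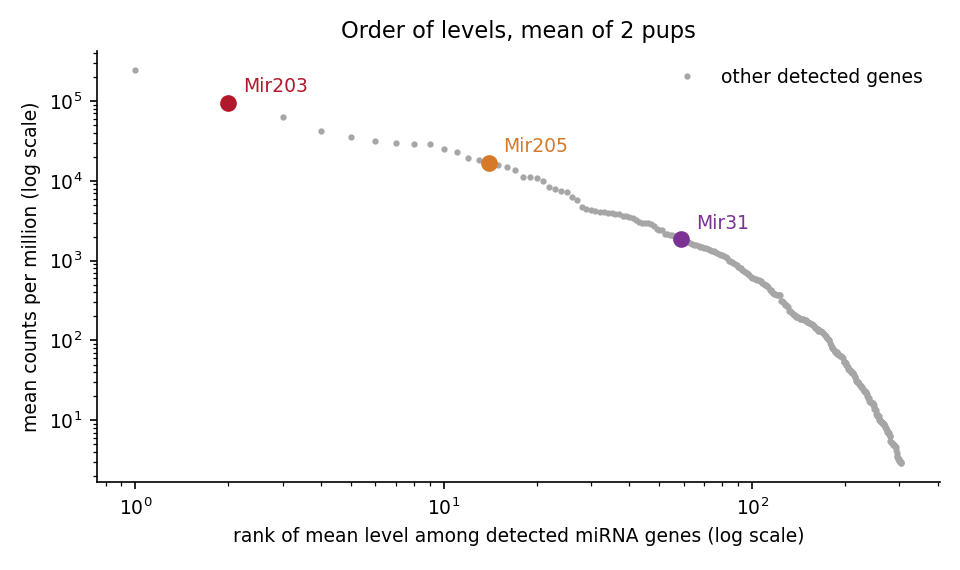
Mean CPM (log axis) against rank (log axis) for the 305 detected genes, with the 3 squamous genes coloured; vertical lines, hidden by the points where short, span the 2 pups. Mir203 sits at rank 2, Mir205 at rank 14 and Mir31 at rank 59.

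Among themselves the 3 genes differed in counts by far more than the pups did. Mir203 made up 83.7% ± 1.55 of the counts of the 3, Mir205 14.7% ± 1.44 and Mir31 1.64% ± 0.112. Mir203 exceeded Mir205 6.19-fold in pup 1 and 5.25-fold in pup 2, a log2 ratio of 2.51 ± 0.17. It exceeded Mir31 54.4-fold and 48.1-fold, a log2 ratio of 5.68 ± 0.13. Mir205 exceeded Mir31 8.79-fold and 9.17-fold, a log2 ratio of 3.17 ± 0.04, and this pair kept the most even ratio between the pups. A small RNA read covers a whole mature miRNA, so these counts were not divided by gene length. Per nucleotide of hairpin, the log2 ratios of Mir203 over Mir205, Mir203 over Mir31 and Mir205 over Mir31 were 2.35, 6.16 and 3.81, with the same order. With 2 libraries no exact permutation test can fall below 0.5, so the SD between pups was the yardstick for these ratios. That SD cannot show an error that both libraries share, so the values are ratios of counts.

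Between the pups, none of the 3 genes was called different. The comparison used a two-sided exact binomial test on the counts of each gene, with library sizes scaled by TMM in edgeR and Benjamini-Hochberg adjustment over the 305 detected genes. A call needed both a 1.5-fold difference and an adjusted p under 0.05, which 9 of 305 genes (2.95%) met. The test covers counting error only and compares these libraries. Mir203 had a log2 ratio of pup 1 over pup 2 of 0.08 (exact 95% interval 0.07 to 0.09; adjusted p = 2.7e-120, exact binomial test). Its sign depended on the scaling, as with total counts the ratio was -0.025. The log2 ratio of Mir205 was -0.16 (-0.17 to -0.14; adjusted p = 2.2e-87, exact binomial test), a level 1.12-fold higher in pup 2. Mir31 had a log2 ratio of -0.10 (-0.15 to -0.05; adjusted p = 0.00012, exact binomial test), 1.07-fold higher in pup 2.

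An adjusted p under 0.05, whatever the ratio, was reached by 159 of 305 detected genes (52.1%), so at this depth it does not set the 3 genes apart. Their absolute log2 ratios of 0.08, 0.16 and 0.10 were all below the median of 0.17 over detected genes. That median includes genes with far fewer counts, whose ratios carry more counting error, so it does not show the 3 genes to be unusually steady. With edgeR's common dispersion, a coefficient of variation of 11.4% estimated from the same 2 libraries, the unadjusted p was 0.74 for Mir203, 0.50 for Mir205 and 0.67 for Mir31, and the adjusted p was 1.0 for each. In that test 1 of 305 genes (0.328%) was called, and it was none of the 3. That dispersion counts the difference between the pups as error. Genes of usual spread therefore cannot reach a low p, and these p-values do not show equal levels. By total counts alone the median detected gene had a log2 ratio of -0.13, against -0.024 with TMM scaling. Mir205 and Mir31 were higher in pup 2 under both scalings.

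**Figure D4:**
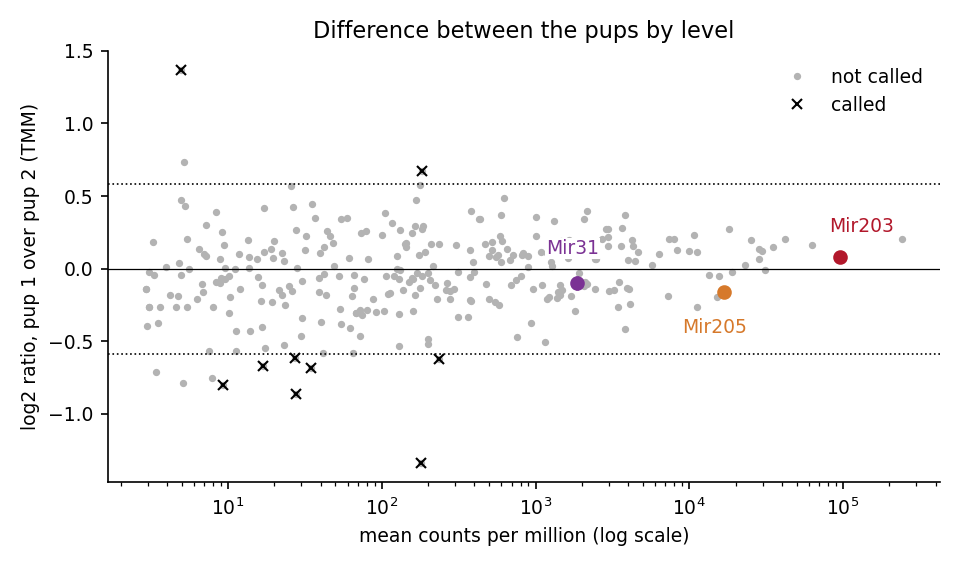
Log2 ratio of pup 1 over pup 2 after TMM scaling against mean CPM (log axis) for the 305 detected genes, with called genes as crosses, the 1.5-fold limits dotted and the 3 squamous genes coloured; their error bars (exact 95% intervals) are hidden by the points where short. The 3 genes lie at 0.08, -0.16 and -0.10, well inside the limits, while the 9 called genes lie outside them.

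Other epithelial miRNA genes give the levels of the 3 genes a scale. All 5 genes of the miR-200 family, expressed in epithelia of every kind, were detected. Mir203 alone exceeded the summed counts of the family 1.55-fold in pup 1 and 1.46-fold in pup 2. Mir205 stood close to Mir200c, with ratios of 1.13 and 1.10, and exceeded Mir141 5.58-fold and 5.59-fold. Mir31 was below Mir200a, the lowest member, with ratios of 0.867 and 0.863. The glandular list holds Mir215, Mir192 and the pair Mir194-1 and Mir194-2, known from intestinal and gastric gland epithelium, and all 4 were detected. Mir203 exceeded their summed counts 11.6-fold and 12.5-fold, and Mir205 exceeded them 1.87-fold and 2.38-fold. Mir31 was below the same sum, with ratios of 0.213 and 0.260. Mir194-1 and Mir194-2 each share a stretch of 20 nt with another hairpin, so reads can be missing from the glandular sum and the ratios can be overstated. No call between the pups was made in either family. Only 9 of 305 detected genes (2.95%) were called at all, so this does not set the families apart.

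Of 11 other miRNA genes studied in keratinocytes and stratified epithelium, 10 were analysed and 9 detected. None of the 9 was called between the pups, 4 being higher in pup 2 and 5 in pup 1 by value. Over all 305 detected genes, 9 (2.95%) were called and 160 (52.5%) were higher in pup 2, so neither count sets the list apart. Mir99a and Mir21a (31266 ± 1682 CPM), a gene raised in many proliferating tissues, were the highest. Mir34a, which p53 induces, stood at 548 ± 89.0 CPM, and Mir130b at a level next to that of Mir31. Mir184, a gene known from cornea and epidermis, had 8 counts in pup 1, short of the detection minimum, and 11 in pup 2. Summed, the 10 genes held 11.09% of counts in pup 1 and 11.07% in pup 2, close to the 11.16% and 11.65% of the 3 squamous genes. The median member of this list stood at 1264 CPM, against 16794 CPM for the squamous genes, so the medians differ where the sums do not. Mir24-2, Mir125b-1 and Mir125b-2 share a 20-nt stretch with another hairpin, so their levels, the sum and this median can be understated. Mir99a and Mir21a are expressed in many cell types, so this list is not specific to squamous cells.

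Genes of other cell types were measured beside the squamous ones. Together the squamous genes held 11.2% of counts in pup 1 and 11.7% in pup 2. Smooth muscle genes (2 of 2 detected) held 25.6% and 23.9%, the endothelial gene Mir126a 3.56% and 3.44%, and endocrine genes (4 of 4) 0.809% and 0.767%. Leukocyte genes (4 of 4) and erythroid genes (2 of 2) held at most 0.0647% in either pup, and none of the 3 pancreatic acinar genes was detected. Striated muscle genes (3 of 6 detected, with Mir133a-1 and Mir133a-2 at 0) held 0.0180% and 0.0367%. Of these 6, 4 share a 20-nt stretch with another hairpin, among them both genes at 0, so the share can be understated. The striated muscle gene Mir206 was called higher in pup 2, with a log2 ratio of -1.34 (adjusted p = 3.7e-60, exact binomial test; 3.1e-05 with edgeR's common dispersion), while Mir208b (-0.21) and Mir133b (-0.18) were not called. The hepatocyte gene Mir122 held 0.0205% and 0.0255% and, with a log2 ratio of -0.21, was not called. The 3 detected striated muscle genes and Mir122 were thus higher in pup 2 by value, as Mir205 and Mir31 were. So were 160 of all 305 detected genes (52.5%) after TMM scaling, so this direction does not set them apart. After TMM scaling, the smooth muscle, endothelial and erythroid genes were all higher in pup 1, and the endocrine and leukocyte genes lay on both sides. The part of any of these genes in the differences of Mir205 and Mir31 was not tested.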

How the data were processed

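The authors deposited 1 table per library of raw read counts per miRNA gene, without regard to strand and for each strand, with no normalization. Per the labels, the libraries come from different pups of 1 dam, and per the description files the assembly is mm10 and the annotation M4. Aligner, counter and adapter trimming were not given in the sources used here. Rows that name no gene (unmapped 8.70% and 8.94% of reads, several places 26.0% and 25.7%, no gene 1.78% and 1.70%) stayed out of totals. The strand column with the larger total (97.7% and 97.8% of gene counts) was used. Symbols came from GENCODE M21, matched without version for 1894 of 1973 identifiers, and sequences from RefSeq GRCm38.p6. A count of 0 allows up to 3 counts, or 0.672 and 0.868 CPM. Reads carry no molecular identifiers, so PCR copies of 1 molecule cannot be told apart and intervals cover counting error only.

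The genes named were the 3 squamous genes, the 2 detected genes next above and below each in mean CPM, members of lists, and genomic neighbours. Members and lists were chosen with earlier results of these data known. Tools were edgeR 4.0.16 and DESeq2 1.42.0 in R 4.3.3, RNAfold 2.7.2, and Python 3.11.15 with scipy 1.17.1, numpy 2.4.6, matplotlib 3.10.9 and pandas 2.3.3. The binomial test was tried on simulated counts with counting error only, which is what the test assumes. That trial does not cover spread between pups beyond counting error. Alternatives changed strand, total, scaling, count filter and error model.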

Additional observations from a re-analysis of the deposited data

Results flagged for a closer look

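Reads on the strand opposite to Mir203 numbered 11 in pup 1 and 12 in pup 2. They stood out because the main comparisons leave that strand out and both values exceed the 3 counts that a count of 0 allows. They made up 0.00261% (exact 95% interval 0.00130% to 0.00466%) and 0.00361% (0.00187% to 0.00631%) of the reads at the gene. Of the 8 detected genes with opposite reads in both pups, Mir203 had the lowest such share, beside a median of 0.0791%. Over all 1973 genes, detected or not, opposite reads made up 2.26% and 2.15%, a total that is not a usual share for a detected gene. Mir205 and Mir31 had 0 opposite reads in both pups, which allows a share of up to 0.00440% and 0.0387% in pup 1. Of the 20 most abundant genes, 16 had no opposite read in either pup, among them Mir143 with 1118351 and 805462 own-strand counts, and 286 of 305 detected genes had none. Mir126a, with 28 and 26, had more than Mir203.

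RefSeq annotates miR-203b on the strand opposite to Mir203. Its arms are shown, seeds in capitals, because they cover nearly the same bases:
miR-203b-5p: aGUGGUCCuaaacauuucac
miR-203b-3p: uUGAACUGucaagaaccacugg
All 20 nt of miR-203b-5p are the reverse complement of bases of miR-203-3p. miR-203b-5p and miR-203-5p begin with the same 6 bases, but their seeds differ. The deposited tables do not say which bases the opposite reads cover.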

How the results depend on the processing

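Of 57 alternative values for 11 results, beside those that leave out a pup, 41 counted as unchanged. Pup ratios had to keep their direction and side of the threshold, and other values to move by less than the SD between pups. The number of called genes had to stay within 1.5-fold. Some values could not change, as Mir205 over Mir31 with counts of both strands, since neither gene had opposite reads. Levels moved with the total used. With all reads in the table as the total, Mir203, Mir205 and Mir31 stood at 59297, 10442 and 1161 CPM and together held 7.09% of reads. With Mir143 left out of the total they stood at 125819, 22132 and 2462 CPM and held 15.04%. Without sequence-sharing genes in the total, Mir203 stood at 103838 CPM and the 3 genes held 12.4%. With counts of both strands, Mir203 stood at 93285 CPM. Per nucleotide of hairpin, a setting added after the data were seen, the log2 ratios of Mir203 and Mir205 over Mir31 were 6.16 and 3.81. With total counts as library sizes the log2 pup ratio of Mir203 reversed from 0.078 to -0.025, and 16 genes were called in place of 9 (15 higher in pup 2 and 1 in pup 1, beside 7 and 2). With edgeR's common dispersion 1 gene was called. None of the 3 squamous genes was called under any of the 6 alternatives for the pup comparison. With either pup left out, levels ranged from 94572 to 96198 CPM for Mir203, 15272 to 18316 for Mir205 and 1737 to 1998 for Mir31. No paired analysis was possible because the libraries form a single group.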

Other observations

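Side by side with the miR-200 genes, the squamous genes had unlike pup ratios, none of them called. The log2 ratio of pup 1 over pup 2 was -0.16 for Mir205, beside -0.19 for Mir200c and -0.15 for Mir141. Mir31 was at -0.10, with Mir200a and Mir200b at -0.11 and -0.04. For Mir203 the ratio after TMM scaling was 0.08, and Mir429, at 0.12, was the only miR-200 gene of the 5 with that sign. That shared sign depended on the scaling. With total counts Mir203 was at -0.025, while Mir429 was still higher in pup 1, at 30024 CPM against 29619 CPM. Ratios within a library need no scaling: Mir205 over Mir200c differed between the pups by 0.03 on the log2 scale, Mir203 over Mir205 by 0.24, and Mir205 over Mir429 by -0.28 (pup 1 minus pup 2). The glandular genes lay on both sides, Mir192 and Mir215 at 0.20 and 0.37, Mir194-1 and Mir194-2 at -0.21 and -0.37. With 2 libraries these are values set side by side, not a pattern across samples.

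Folding of the annotated hairpins with RNAfold gave minimum free energies of -35.1 kcal/mol for Mir203, -33.8 for Mir205 and -48.7 for Mir31. Per nucleotide these were -0.46, -0.50 and -0.46, beside a median of -0.43 over the hairpins of 305 detected genes. All 3 hairpins were thus more stable per nucleotide than the median, although their levels span 51.2-fold from Mir31 to Mir203. Mir205 was more stable than 78.0% of detected genes, Mir203 than 64.3% and Mir31 than 63.3%. The annotated hairpins differ in how far they extend beyond the arms, which these values include.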
